A study of Homo sapiens with 60 samples.

Results

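A549 cells, a human lung adenocarcinoma line of alveolar epithelial character, were compared after 24 h with either of 2 hot-water extracts of herbal decoctions, Soyo-san and Okbyeongpung-san, each labelled 500 µg/mL. The comparison used 6 of the 60 libraries in the series, 3 for each extract, chosen by their labels alone. As traditional formulas, Soyo-san contains Menthae Herba (mint) among its herbs and Okbyeongpung-san contains Saposhnikoviae Radix; the labels do not list the herbs. The same extracts at 100 and 20 µg/mL, 3 libraries each, served as a dose comparison. All 18 of these libraries have names that begin with 7, read here as 1 library set. The labels do not say what this number stands for, and the titles put all 60 libraries in batch B. Cells with 0.1% DMSO for 24 h were the vehicle group per the sample labels (the series description gives 2% DMSO). The library names of the vehicle and of the single herbs begin differently, which is read here as other library sets. A difference between the vehicle or a herb and either decoction therefore cannot be told apart from library set, and their levels are given as context without a test. Within each replicate the library names number all Soyo-san libraries before all Okbyeongpung-san libraries. A difference between the 2 extracts therefore cannot be told apart from this library order. The series description states that extracts toxic below 500 µg/mL were dosed at their IC20 instead, while the labels of both decoctions print 500. Nothing in the labels says whether the replicates were separate cultures, so the p-values measure the spread between these libraries, which may be technical.

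Counts summed to between 22719326 and 25844036 in the 6 libraries at 500 µg/mL. Epithelial genes marked the cells: KRT8, a simple-epithelium keratin, lay between 2805 and 2962 CPM, the counts scaled to a common library size, and KRT18, its partner, between 2292 and 2526. The epithelial adhesion genes CDH1 and EPCAM were much lower, at 30.6 to 37.5 and 4.26 to 5.05 CPM. The defining leukocyte markers PTPRC and CD3E and the endothelial receptor gene KDR were at 0 in all 6. Summed leukocyte markers reached 17.0 to 18.6 CPM with Soyo-san and 14.7 to 16.5 with Okbyeongpung-san, carried by CD68 and CD14 of 8 genes, and fibroblast markers 36.4 to 37.5 against 35.3 to 39.5. Most of the fibroblast sum came from the collagen gene COL1A1, at 29.85 to 33.2 CPM over the 6 libraries. Endothelial and hepatocyte marker sums were at most 0.398 and 0.331 CPM. Mitochondrially encoded transcripts took 19.4%, 14.3% and 15.1% of counts in the Soyo-san libraries and 14.5%, 14.3% and 14.9% in the Okbyeongpung-san libraries, so that Soyo-san replicate 1 stood apart. The mean difference of 1.71 percentage points did not pass an exact permutation test (two-sided p = 0.4, where 3 against 3 libraries cannot go below 0.1).

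The genes that separated the extracts belong mostly to 3 systems. The aryl hydrocarbon receptor (AhR) is a transcription factor that is activated in the cytosol by planar aromatic compounds, many of them from plants, pairs with ARNT in the nucleus, binds DNA elements with the core GCGTG and induces xenobiotic-metabolising cytochromes together with its own inhibitors. The ID proteins are helix-loop-helix proteins without a DNA-binding region that hold back differentiation factors, and their genes are immediate targets of bone morphogenetic protein (BMP) signals passed on by SMAD proteins. Selenoproteins carry selenocysteine, inserted at a UGA codon, and include the glutathione peroxidases that remove peroxides and the deiodinases that activate or inactivate thyroid hormone.

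At 500 µg/mL the extracts differed in few genes. Of 16505 genes tested, 10 passed an adjusted p of 0.05 (edgeR's quasi-likelihood test with Benjamini-Hochberg adjustment), or 0.0606% of genes tested, with 3 higher (0.0182%) and 7 lower (0.0424%) with Soyo-san. CYP1A1, CYP1B1 and TIPARP, all AhR targets, were the 3 higher genes. ID4, ATOH8, ID2, GPX1, DIO2, IGFBP5 and ADGRG1 were the 7 lower ones. Without Soyo-san replicate 1, the library with the high mitochondrial share, 6 genes were called (TIPARP, CYP1B1, ID4, ID2, GPX1 and IGFBP5), and 6 were likewise called without Soyo-san replicate 2 or Okbyeongpung-san replicate 1. Without adjustment 904 genes had a p under 0.05, 5.48% of those tested. CYP1A1 was the only called gene that differed by 2-fold or more. The median log2 difference of all genes was 0.00, and of the 10952 genes with a mean of at least 5 CPM, 98.7% had a 95% interval that lay within 0.5 of 0 on the log2 scale.

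**Figure D1:**
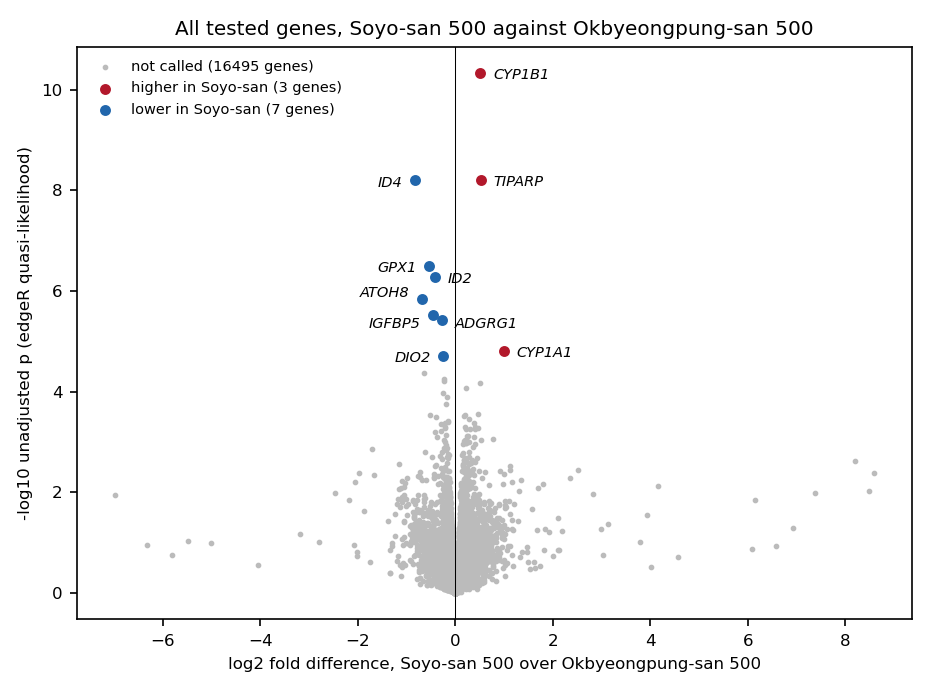
Log2 fold difference of each of the 16505 genes tested (horizontal axis, Soyo-san 500 over Okbyeongpung-san 500) against the -log10 unadjusted p of edgeR's quasi-likelihood test (vertical axis), 3 libraries a group. The 3 higher genes are red, the 7 lower genes blue, and the rest grey. Of the grey points with a log2 difference of 1 or more in either direction, 1 is a gene with a mean of at least 5 CPM. The rest of those are genes of lower level.

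The AhR genes are shown first by sequence, since the element that the receptor binds is short enough to be looked for. These are the 250 bases before the transcription start of TIPARP (first of 3 starts) and of CYP1A1 in RefSeq (GRCh38.p14), 5′ to 3′ on the gene's strand, with each GCGTG or its reverse complement CACGC in capitals.
TIPARP, chr3:156674340-156674589, plus strand: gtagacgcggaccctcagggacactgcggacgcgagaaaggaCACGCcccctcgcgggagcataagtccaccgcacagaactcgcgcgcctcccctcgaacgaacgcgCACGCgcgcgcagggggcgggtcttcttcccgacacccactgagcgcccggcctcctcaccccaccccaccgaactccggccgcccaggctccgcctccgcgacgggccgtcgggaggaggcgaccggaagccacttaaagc
CYP1A1, chr15:74725529-74725778, minus strand: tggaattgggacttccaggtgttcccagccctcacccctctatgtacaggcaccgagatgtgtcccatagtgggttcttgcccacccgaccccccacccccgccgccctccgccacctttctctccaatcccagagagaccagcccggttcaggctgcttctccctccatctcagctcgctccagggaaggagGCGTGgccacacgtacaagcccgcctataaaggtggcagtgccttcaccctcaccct
The TIPARP sequence holds 2 matches, 208 and 142 bases before the start and both in reverse complement, and the CYP1A1 sequence holds 1 match, 57 bases before the start. No match lay before the other 2 TIPARP starts. GCGTG on either strand occurs in 32.2% of 35116 such promoter windows, so a match describes the sequence and does not mark a site in use. Of 6 called genes looked up, 5 had promoter entries. In the windows of ID2, ID4 and ATOH8, the letters GGCGCC, a GC-rich element that SMAD proteins bind, were searched for on both strands and not found; 16.4% of windows hold them. Sequence outside these 250 bases was not searched, so the search cannot say whether these genes have the element elsewhere.

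Of the 10 AhR targets listed, 8 passed the filter on low counts, 3 of these 8 were called higher with Soyo-san and 5 did not pass the test. Of the 8 log2 differences 3 were below 0, and their median log2 difference was 0.33 against 0.00 for all genes. CYP1B1 (chr2:38066973-38109902, minus strand), a cytochrome P450 that hydroxylates oestrogens and polycyclic hydrocarbons, stood at 157, 155 and 158 CPM with Soyo-san and 106, 112 and 110 with Okbyeongpung-san. The groups were far apart, and Okbyeongpung-san lay closer to the 96.0, 94.4 and 95.5 CPM of the vehicle libraries. Its log2 difference was 0.52 ± 0.0399 (SE; 1.43-fold; adjusted p = 7.66e-07, edgeR's quasi-likelihood test), the smallest p of the comparison.

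TIPARP (chr3:156673235-156706770, plus strand) encodes a mono-ADP-ribosyltransferase that modifies AhR and limits its activity. Its level was 55.3, 57.5 and 58.7 CPM with Soyo-san, 38.0, 41.9 and 38.9 with Okbyeongpung-san, and 40.3, 37.4 and 39.6 with vehicle. All 3 Soyo-san libraries were high, while the Okbyeongpung-san and vehicle libraries overlapped. The log2 difference between the extracts was 0.53 ± 0.0545 (SE; 1.44-fold; edgeR adjusted p = 3.49e-05).

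CYP1A1 (chr15:74719542-74725610, minus strand), the classical AhR-induced cytochrome of aryl hydrocarbon metabolism, was scarce. Soyo-san libraries held 63, 79 and 73 counts (2.69, 3.04 and 3.05 CPM) and Okbyeongpung-san libraries 34, 34 and 37 counts (1.51, 1.41 and 1.46 CPM). The groups did not overlap and the fold was the largest of the called genes at 2.00 (log2 1.00 ± 0.176 SE, edgeR adjusted p = 0.0283). At these counts the call needed all 6 libraries: leaving out each in turn gave log2 differences of 0.97 to 1.06 and edgeR adjusted p-values of 0.0598 to 0.225.

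The 5 other AhR targets tested did not pass the test. AHRR, NQO1, ALDH3A1 and SLC7A5 are given below, and the remaining target is not. The median log2 difference of 0.33 over the 8 tested lies above each value given for them. The remaining target therefore lay above that median, on the side of the called genes. AHRR, the AhR repressor, stood at 6.14, 6.32 and 6.01 CPM with Soyo-san and 4.56, 5.71 and 5.82 with Okbyeongpung-san, groups that did not overlap but differed by a log2 of 0.20 (95% interval -0.05 to 0.44). The log2 differences of NQO1, a quinone reductase, ALDH3A1, an aldehyde dehydrogenase, and SLC7A5, an amino acid transporter, were -0.01 (-0.13 to 0.11), -0.02 (-0.11 to 0.08) and -0.01 (-0.09 to 0.07). These 3 intervals exclude the 1.43-fold seen for CYP1B1. None of the 7 listed AhR pathway components passed the test. AHR itself had a log2 difference of -0.11 (95% interval -0.24 to 0.03), and its partner ARNT -0.07 (-0.18 to 0.05).

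All 12 genes of the ID and BMP feedback list were tested, 3 were called lower with Soyo-san and 9 did not pass the test. All 12 log2 differences were below 0, and their median was -0.28 against 0.00 for all genes. ID4 (chr6:19837386-19840684, plus strand) differed most among the lower genes, at 6.05, 6.90 and 6.63 CPM with Soyo-san and 11.8, 11.96 and 10.8 with Okbyeongpung-san. The highest Soyo-san library lay well under the lowest Okbyeongpung-san library, and the vehicle libraries, at 11.6, 12.3 and 12.4 CPM, were close to Okbyeongpung-san. The log2 difference was -0.82 ± 0.0844 (SE; 1.76-fold lower; edgeR adjusted p = 3.49e-05).

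ATOH8 (chr2:85751344-85788066, plus strand), a basic helix-loop-helix factor known as a BMP target in endothelial and liver cells, stood at 8.48, 9.75 and 10.3 CPM with Soyo-san, 15.5, 14.03 and 16.2 with Okbyeongpung-san, and 17.3, 17.8 and 17.99 with vehicle. Both extracts were below the vehicle values, Soyo-san further. The extracts differed by a log2 of -0.68 ± 0.100 (SE; 1.60-fold lower; edgeR adjusted p = 0.00403). Without Soyo-san replicate 1, which had the lowest ATOH8 level, the log2 difference was -0.61 and the edgeR adjusted p 0.0502.

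ID2 (chr2:8678845-8684453, plus strand) was more abundant in counts and showed the same order. It stood at 78.2, 81.8 and 75.5 CPM with Soyo-san and 102, 108 and 104 with Okbyeongpung-san, against 109, 110 and 112 with vehicle (log2 difference -0.41 ± 0.0566 SE, 1.33-fold lower, edgeR adjusted p = 0.00173). The remaining family members lay on the same side without passing the test: ID3 stood at 109, 118 and 113 CPM with Soyo-san and 138, 138 and 140 with Okbyeongpung-san. Its groups did not overlap, and its log2 difference of -0.29 (95% interval -0.43 to -0.15) had an edgeR adjusted p of 0.247. ID1 stood at 110, 135 and 131 CPM against 155, 149 and 150, with a log2 difference of -0.27 (95% interval -0.48 to -0.07, edgeR adjusted p = 0.754). Soyo-san replicate 1 was the lowest library for both genes. Without it the log2 difference was -0.26 for ID3 and -0.19 for ID1, and with the mitochondrial percentage of each library as a covariate it was -0.24 and -0.17.

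The inhibitory SMAD genes, which BMP signals also induce, did not pass the test. SMAD6 had a log2 difference of -0.13 (95% interval -0.24 to -0.03) and SMAD7 of -0.04 (-0.19 to 0.11). BAMBI, a decoy receptor gene, was at -0.15 (-0.28 to -0.01). Of the 17 listed BMP ligands, antagonists and receptors, 16 were tested and none was called; their median log2 difference was 0.01. BMP4 was at -0.01 (95% interval -0.22 to 0.20), the receptor genes BMPR1A and BMPR2 at 0.02 and -0.06, and the signal carriers SMAD1 and SMAD5 at 0.02 and 0.06.

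Selenoprotein genes lay on both sides of 0. Of the 22 listed, 20 were tested, 2 were called lower with Soyo-san and none higher, 13 of the 20 log2 differences were below 0, and the median was -0.05. GPX1 (chr3:49357171-49358600, minus strand), the cytosolic glutathione peroxidase whose transcript is known to decay when selenium is short, is classed as a polymorphic pseudogene in GENCODE 29. Its level was 49.5, 50.9 and 47.5 CPM with Soyo-san, 74.0, 69.8 and 71.8 with Okbyeongpung-san, and 77.2, 77.0 and 80.5 with vehicle. Soyo-san libraries were low in all 3 cases, and the log2 difference between the extracts was -0.54 ± 0.0719 (SE; 1.46-fold lower; edgeR adjusted p = 0.00131).

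DIO2 (chr14:80197527-80387757, minus strand), the deiodinase that makes active thyroid hormone, stood at 67.1, 66.6 and 66.0 CPM with Soyo-san and 78.5, 80.8 and 78.1 with Okbyeongpung-san. Libraries agreed closely within each group, and the log2 difference was small at -0.25 ± 0.0446 (SE; edgeR adjusted p = 0.0319). Leaving out any 1 of the 6 libraries lost the call, with edgeR adjusted p-values of 0.14 to 0.297 and log2 differences of -0.26 to -0.23. SELENOW, a small selenoprotein whose transcript is also known to follow selenium supply, had a log2 difference of -0.27 (95% interval -0.42 to -0.12, edgeR adjusted p = 0.407), and SELENOH, a nucleolar one, -0.39 (-0.62 to -0.15). GPX4, the lipid peroxide reductase that guards against ferroptosis, was at -0.09 (-0.21 to 0.04), and TXNRD1, a thioredoxin reductase, at -0.12 (-0.21 to -0.02). None of the 8 tested genes for selenium supply and selenocysteine insertion passed the test.

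**Figure D2:**
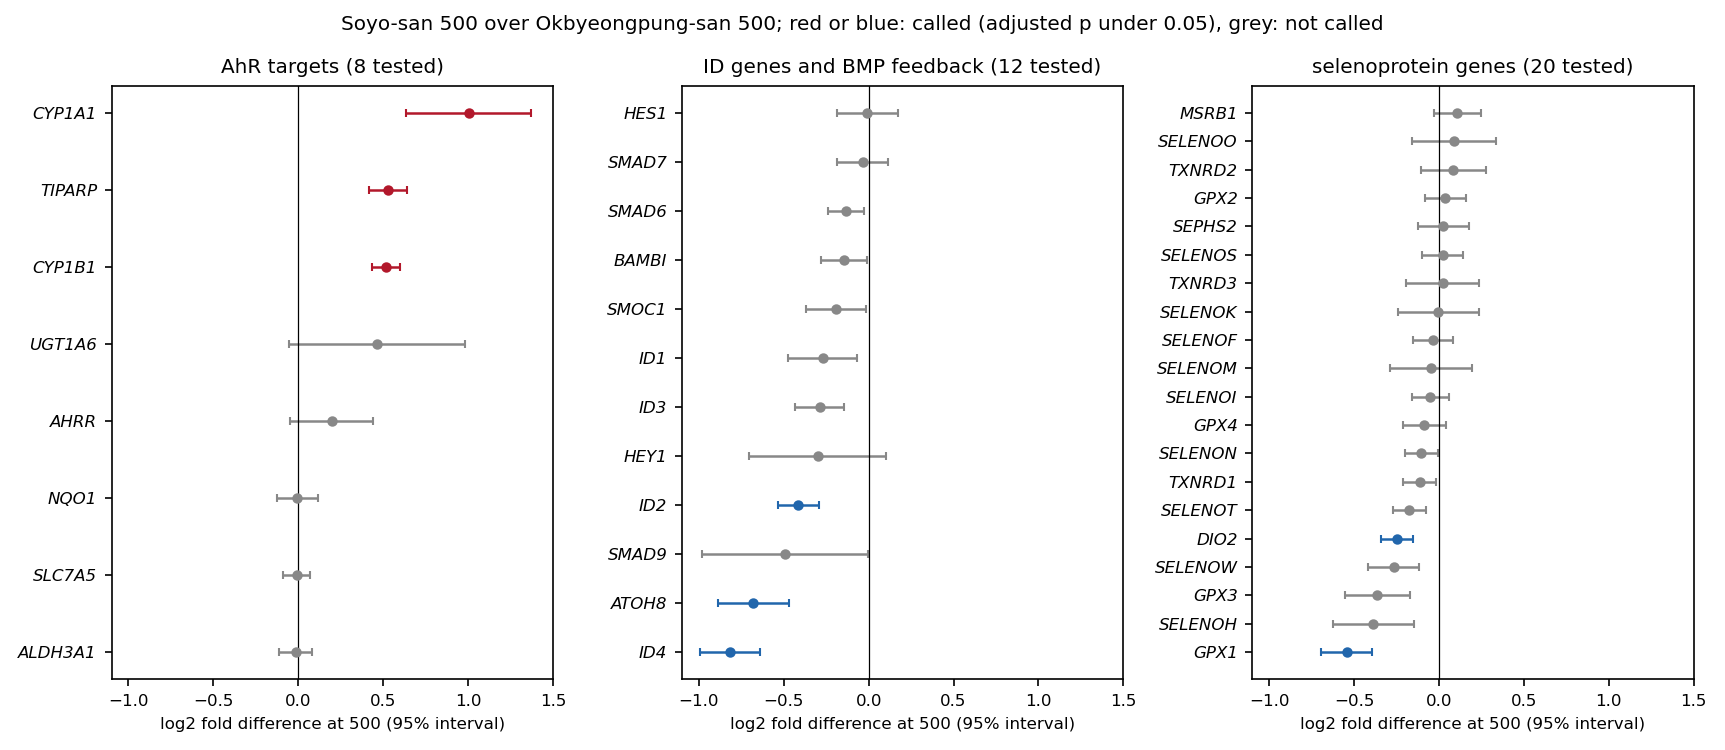
Log2 fold difference with its 95% interval (horizontal axis, Soyo-san 500 over Okbyeongpung-san 500) for each tested gene of the AhR target, ID and BMP feedback, and selenoprotein lists (vertical axis), 3 libraries a group. Red and blue points passed the test; all 12 ID and BMP feedback genes lie left of 0, while the selenoprotein genes lie on both sides.

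The other called genes were single members of their kind. IGFBP5 (chr2:216672105-216695525, minus strand), a secreted binder of insulin-like growth factors, stood at 13.8, 12.98 and 14.01 CPM with Soyo-san and 19.4, 18.8 and 17.97 with Okbyeongpung-san, and was the only called gene of the 11 tested IGF-binding and imprinted genes (log2 difference -0.46 ± 0.0714 SE, edgeR adjusted p = 0.00705). Its groups were separate, with the vehicle at 17.3, 20.3 and 18.5 CPM. Without Okbyeongpung-san replicate 1, Soyo-san replicate 2 or Okbyeongpung-san replicate 2, its edgeR adjusted p was 0.0828, 0.102 and 0.051.

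ADGRG1 (chr16:57610652-57665580, plus strand), an adhesion G protein-coupled receptor gene, stood at 132, 130 and 137 CPM with Soyo-san and 170, 156 and 157 with Okbyeongpung-san (log2 difference -0.27 ± 0.0431 SE, edgeR adjusted p = 0.00775). The groups did not overlap, and the vehicle libraries lay at 161, 168 and 162 CPM. Without Soyo-san replicate 1, Okbyeongpung-san replicate 1 or Soyo-san replicate 2, the edgeR adjusted p was 0.0598, 0.13 and 0.102.

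All 10 called genes had groups that did not overlap. Over all genes tested, all 3 Soyo-san libraries lay above all 3 Okbyeongpung-san libraries for 6.38% and below them for 6.99%. Several called genes share their locus with another annotated gene on the other strand, among them CYP1B1 with CYP1B1-AS1 and RMDN2, ID2 with ID2-AS1, and TIPARP with TIPARP-AS1; whether the counting used strand is not given in the sources used here. CYP1B1-AS1 had a log2 difference of 0.63 and TIPARP-AS1 of -0.20, and neither passed the test.

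**Figure D3:**
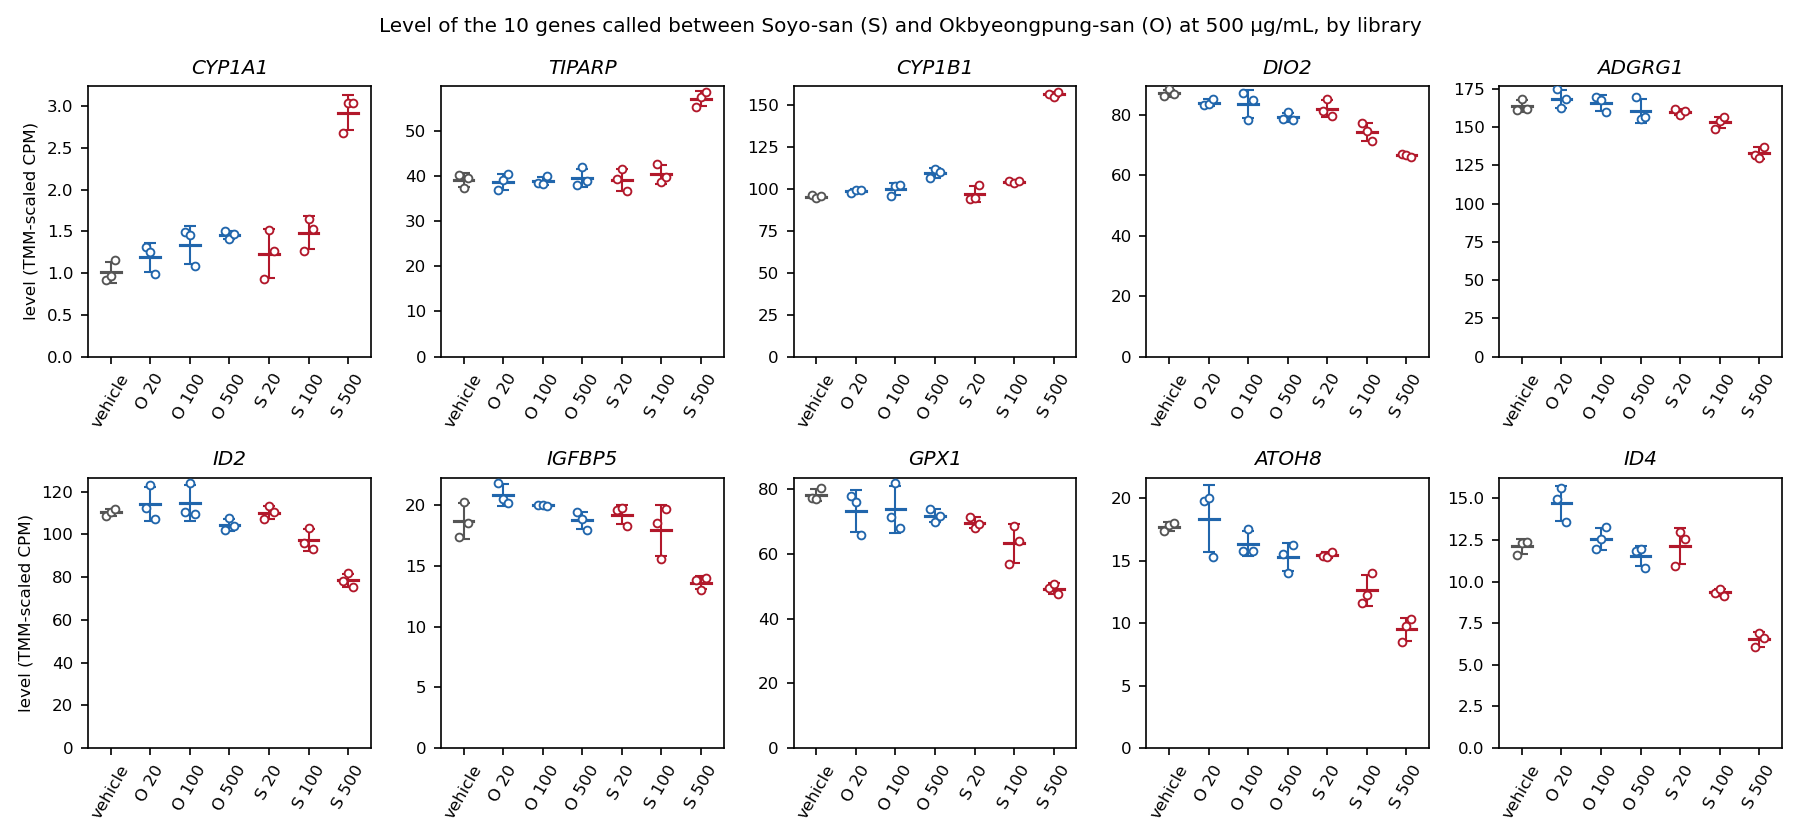
Level of the 10 called genes in every library (vertical axis, TMM-scaled CPM, from 0) for the vehicle, Okbyeongpung-san (O) and Soyo-san (S) groups by dose in µg/mL (horizontal axis). Circles are libraries, horizontal lines means and bars SD (n = 3); in each panel the Soyo-san 500 libraries lie apart from the Okbyeongpung-san 500 libraries.

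At lower doses no gene was called between the extracts. At 100 µg/mL, 0 of 16505 genes passed the test (0% called; 598 genes at an unadjusted p under 0.05, and 0 called and 302 unadjusted with DESeq2), and at 20 µg/mL likewise 0 (0% called; 584 unadjusted, and 0 called and 289 unadjusted with DESeq2). The 100 and 20 µg/mL libraries are not those of the comparison at 500. Of the 10 genes called at 500, all 10 had the same direction at 100 and 9 at 20, where 51.2% and 50.7% of all genes had the direction they had at 500. Of the 10, 7 had an unadjusted p under 0.05 at 100 and 2 at 20 (edgeR's quasi-likelihood test). Their smallest adjusted p from that test was 0.543 at 100 and 0.999 at 20.

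TIPARP and CYP1B1 lay close together in the extracts at the lower doses. TIPARP stood at 42.7, 38.6 and 39.8 CPM with Soyo-san at 100 µg/mL and 38.5, 38.3 and 40.0 with Okbyeongpung-san at 100. The groups overlapped, and the log2 difference was 0.05 (95% interval -0.07 to 0.17), an interval that excludes the 1.44-fold seen at 500. CYP1B1 at 100 stood at 105, 103 and 105 CPM against 95.9, 102 and 102, a log2 difference of 0.06 (95% interval -0.03 to 0.14). At 20 the log2 differences were 0.01 for TIPARP and -0.02 for CYP1B1.

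ID4 at 100 stood at 9.30, 9.58 and 9.16 CPM with Soyo-san and 11.95, 12.5 and 13.3 with Okbyeongpung-san. Those groups did not overlap, with a log2 difference of -0.43 (95% interval -0.60 to -0.26), and at 20 it was -0.28 (-0.44 to -0.12). ATOH8 had log2 differences of -0.38 (95% interval -0.58 to -0.17) at 100 and -0.25 (-0.45 to -0.06) at 20. For ID2 the difference was -0.23 at 100 and -0.05 at 20, and for GPX1 -0.22 and -0.08. None of these passed the test at 100 or 20, so they are intervals and not calls.

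**Figure D4:**
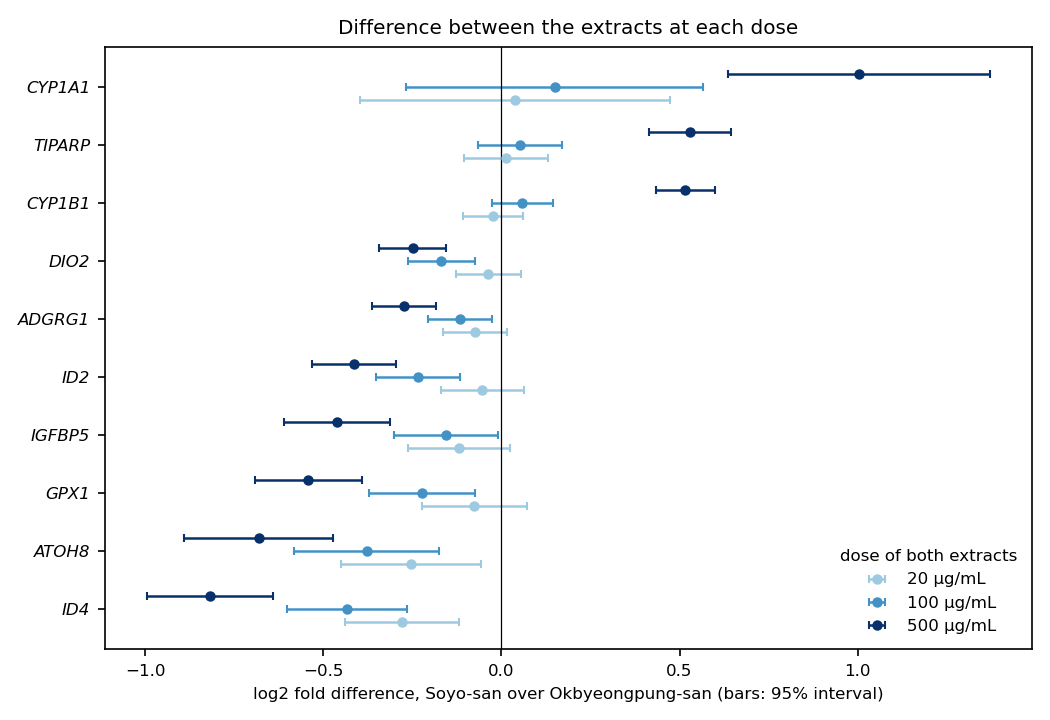
Log2 fold difference between Soyo-san and Okbyeongpung-san (horizontal axis, bars are 95% intervals) for the 10 genes called at 500 µg/mL (vertical axis), at 20, 100 and 500 µg/mL of both extracts, 3 libraries a group. TIPARP and CYP1B1 lie near 0 at 20 and 100, while ID4 and ATOH8 lie left of 0 at every dose.

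Whether the change from 20 to 500 µg/mL itself differed between the extracts was tested as an interaction, and 2 genes passed, 0.0121% of those tested. CYP1B1 went from 94.0, 94.7 and 102 to 157, 155 and 158 CPM with Soyo-san (log2 change 0.69), and from 97.5, 99.2 and 99.3 to 106, 112 and 110 CPM with Okbyeongpung-san (0.15). The difference of the log2 changes was 0.54 ± 0.0571 (SE, edgeR adjusted p = 1.58e-04). TIPARP changed by a log2 of 0.55 with Soyo-san and 0.04 with Okbyeongpung-san, a difference of 0.52 ± 0.0786 (SE, edgeR adjusted p = 0.0197).

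TIPARP's interaction call was lost without Soyo-san 20 replicate 1, Okbyeongpung-san 500 replicate 1, Soyo-san 500 replicate 2, Okbyeongpung-san 20 replicate 2, Soyo-san 500 replicate 3, Soyo-san 20 replicate 3, Okbyeongpung-san 500 replicate 3 or Okbyeongpung-san 20 replicate 3, with edgeR adjusted p-values of 0.0822 to 0.12. In those fits the difference of the log2 changes was 0.47 to 0.52. The other called genes did not pass: the difference of the log2 changes was -0.54 (95% interval -0.78 to -0.30) for ID4, -0.47 (-0.68 to -0.26) for GPX1, -0.36 (-0.53 to -0.19) for ID2 and 0.96 (0.39 to 1.54) for CYP1A1.

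Each extract was then followed from 20 to 500 µg/mL by itself. These comparisons share the 500 µg/mL libraries with the comparison between the extracts, so the values are set side by side and not counted as further support. With Soyo-san 68 genes passed the test (0.412%), 43 higher (0.261%) and 25 lower (0.151%) at 500, and with Okbyeongpung-san 15 (0.0909%), all higher. ID4 fell by 0.89 on the log2 scale with Soyo-san, ATOH8 by 0.69, GPX1 by 0.50, ID2 by 0.49 and ID3 by 0.39, all called. The corresponding log2 values with Okbyeongpung-san were -0.35, -0.27, -0.03, -0.13 and -0.17, none of them called.

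Of 18 tested chemokine and NF-kB target genes, 12 rose from 20 to 500 with Soyo-san and 8 with Okbyeongpung-san, and the other 6 and 10 did not pass the test. Of the 14 genes called from 20 to 500 in both, all 14 were higher at 500, 13 had a higher level with Soyo-san 500 than with Okbyeongpung-san 500, and none of the 14 was called between the extracts at 500. CXCL8, the gene of the neutrophil chemokine interleukin-8, went from 1.295, 1.47 and 1.18 to 6.74, 6.24 and 6.26 CPM with Soyo-san and from 1.53, 1.40 and 1.63 to 4.56, 5.13 and 4.83 with Okbyeongpung-san. In both extracts every library at 500 was above every library at 20, with log2 changes of 2.29 and 1.67, and the difference of these changes did not pass the test (0.62, 95% interval 0.25 to 0.99). At 500 the Soyo-san libraries lay above the Okbyeongpung-san libraries, and the log2 difference of 0.40 (95% interval 0.20 to 0.61) did not pass the test (edgeR adjusted p = 0.249).

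CXCL1, another neutrophil chemokine gene, rose by a log2 of 2.01 with Soyo-san and 1.82 with Okbyeongpung-san, and CXCL5 by 1.12 and 0.77. CCL2, the monocyte chemoattractant gene, rose by 1.23 and 0.91; between the extracts at 500 it stood at 15.1, 13.8 and 13.7 against 10.0, 9.27 and 10.8 CPM, groups that did not overlap. That log2 difference of 0.50 (95% interval 0.29 to 0.71) had an edgeR adjusted p of 0.0775. CCL2 was called between the extracts in a fit of the 6 libraries alone and with DESeq2. It was also called without Okbyeongpung-san 100 replicate 2, a fit not planned for this comparison. CXCL5 was called in a fit of 57 libraries and with DESeq2. TNFAIP3, the feedback inhibitor A20 of NF-kB, rose by 0.61 with Soyo-san and 0.73 with Okbyeongpung-san, and its difference at 500 was 0.09 (-0.07 to 0.25). Over the list of chemokines and NF-kB targets, 0 of 18 genes were called between the extracts at 500, and the median log2 difference was 0.23, with 2 of 18 below 0.

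**Figure D5:**
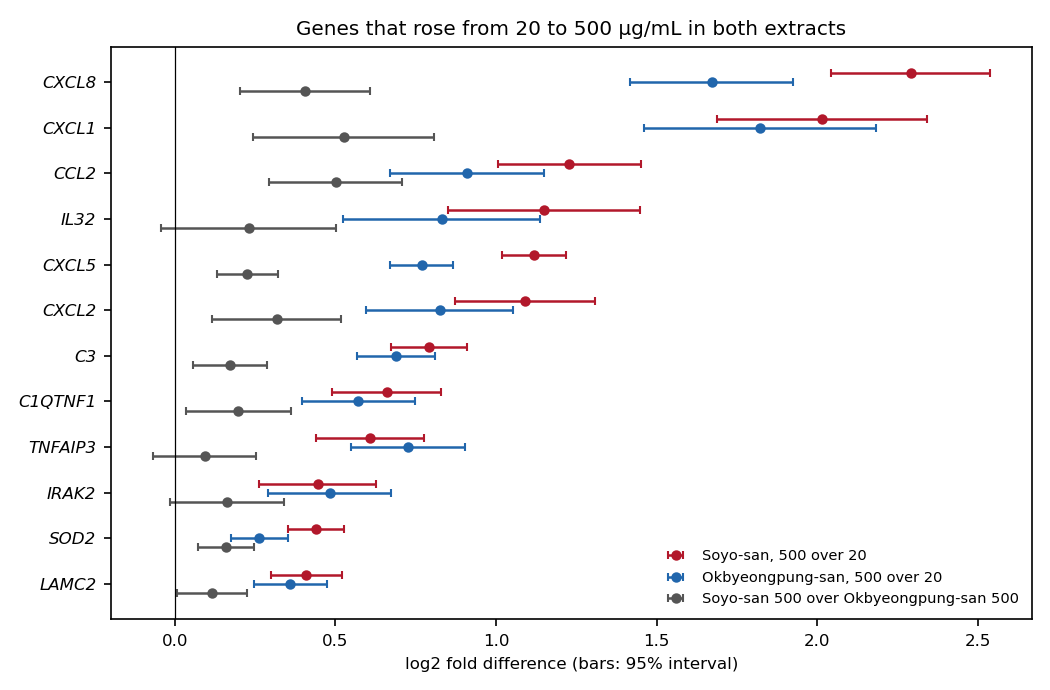
Log2 fold differences with 95% intervals (horizontal axis) of 12 genes of at least 5 CPM that were called from 20 to 500 µg/mL in both extracts (vertical axis): the change with Soyo-san (red), the change with Okbyeongpung-san (blue) and the difference between the extracts at 500 (grey), 3 libraries a group. The dose changes lie right of 0 in both extracts and none of the grey differences passed the test.

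Of 39 gene lists, 4 held a gene called between the extracts at 500. The NRF2 targets, genes of the electrophile response that A549 cells run at a high level because of a KEAP1 mutation, had a median log2 difference of -0.01 with 0 of 28 called, and HMOX1, haem oxygenase, was at -0.01 (95% interval -0.11 to 0.09). Cholesterol synthesis (0 of 24 called), unfolded protein response (0 of 19), p53 targets (0 of 20) and mitosis genes (0 of 26) had medians of 0.05, -0.03, 0.02 and 0.01. The 15 mitochondrially encoded genes were all above 0 with a median of 0.18 and none called. For MT-ND1, a complex I subunit gene, the log2 difference was 0.20 (95% interval -0.18 to 0.58), and without Soyo-san replicate 1 it was -0.02.

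The single herbs at 500 µg/mL, whose library names begin with 5, are given for reference. TIPARP stood at 93.0, 97.5 and 96.4 CPM with Menthae Herba and 50.2, 49.3 and 47.9 with Saposhnikoviae Radix, and CYP1B1 at 220, 215 and 210 against 138, 130 and 130. Menthae Herba libraries were thus the higher for both genes, as were the Soyo-san libraries of the 2 decoctions. Among the other extracts at 500 µg/mL, Soshiho-tang (1 library) stood at 78.3 CPM for TIPARP and 179.8 for CYP1B1, above the Soyo-san libraries. Means were 41.2 and 106.9 with Guibi-tang and 38.3 and 97.1 with Saengmaek-san. ID4 stood at 7.44, 6.41 and 7.99 CPM with Menthae Herba and 9.40, 9.35 and 9.64 with Saposhnikoviae Radix. GPX1 stood at 52.6, 50.5 and 53.6 against 67.2, 67.2 and 66.8, again in the order of the decoctions. Among the other extracts at 500 µg/mL, mean GPX1 was 60.5 CPM with Guibi-tang and 58.0 with Saengmaek-san, and Soshiho-tang (1 library) stood at 57.2. These GPX1 values lay between the Soyo-san and the Okbyeongpung-san libraries. For ID4 the values were 8.39 with Guibi-tang, 11.7 with Saengmaek-san and 8.50 with Soshiho-tang. ATOH8 was in the other order, at 13.18, 13.35 and 13.01 CPM with Menthae Herba and 12.51, 13.11 and 12.62 with Saposhnikoviae Radix, groups that overlapped. All levels in this paragraph come from other library sets, and the herbs' part in the difference between the decoctions was not tested.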

How the data were processed

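RNA was sequenced with a directional library kit as paired-end reads, per the labels' protocols. The authors deposited 1 table of RSEM expected counts per gene for 60 libraries and 60675 genes; the submitters' processing notes name FastQC 0.11.9, Trim Galore 0.6.5, STAR 2.7.3a and RSEM 1.3.3, while the annotation release and strand setting are not given in the sources used here. Expected counts, 10.5% of them not whole, were rounded. Symbols came from the gene ID for 56558 genes, and from GENCODE 29 (GRCh38) for 497 more. The 18 libraries of both extracts at 3 doses (19294196 to 29081437 counts) were fitted together in 6 groups with edgeR 4.0.16 in R 4.3.3: TMM scaling, filterByExpr (minimum count 10, minimum total 15), glmQLFit and glmQLFTest, 12 residual degrees of freedom, and Benjamini-Hochberg adjustment over 16505 genes at 0.05. Levels are CPM with TMM factors. Replicates differed by more than sampling noise (chi-square over its degrees of freedom 2.12 to 23.2 within groups). On simulated counts for Soyo-san 500 against Okbyeongpung-san 500 (16505 genes), 90% of 50 genes changed 1.3-fold were recovered. The share was 96% at 1.5-fold and 100% at 2-fold and at 4-fold, with 13 false calls. Genes of every fold, 50 each, were changed at once, and all had at least 5 CPM. More genes were changed than were called in the data, which eases the adjustment, so these shares do not carry over to the data.

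Named genes were called genes of at least 5 CPM with groups that do not overlap (up to 15 in each direction), called members of lists with 2 or more called members (up to 4 each), and a fixed set (TIPARP, ID4, GPX1, CYP1A1, CYP1B1, AHRR, ID1, ID2, ID3, ATOH8, SELENOW, GPX4, CXCL8, HMOX1, MT-ND1). Other genes named are list members or genes called from 20 to 500. Members, lists and rules were chosen with earlier results of these data known. Alternatives included DESeq2 1.42.0, other scalings and filters, fits of 57 and 6 libraries, a replicate block and leaving out each library.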

Additional observations from a re-analysis of the deposited data

Results flagged for a closer look

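For 2 genes the change from 20 to 500 µg/mL differed between the extracts by a test of the difference itself. The log2 change of CYP1B1 was 0.54 larger with Soyo-san than with Okbyeongpung-san, and that of TIPARP 0.52 larger (edgeR interaction adjusted p = 1.58e-04 and 0.0197). In both genes every Soyo-san 500 library was above every other library of the 2 extracts.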

How the results depend on the processing

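Of the 10 genes called between the extracts at 500, TIPARP, CYP1B1, ID4, ID2 and GPX1 kept the call in every alternative run, and no named gene took a called value of the other sign. The count of called genes was 23 in a fit of 57 libraries and 22 in a fit of the 6 libraries alone. It was 24 with DESeq2 and 122 with no filter on low counts. Leaving out 1 of the 6 libraries gave 6 to 8, with 6 without Soyo-san 500 replicate 1, Soyo-san 500 replicate 2 or Okbyeongpung-san 500 replicate 1. A fit without Okbyeongpung-san 100 replicate 2, not planned for this comparison, gave 12. That library lay at 33.8 on the second principal component of the 18 libraries, where the next highest lay at 14.2. All 10 genes were among the 23, 22 and 122, and 9 among the 24; DESeq2 gave CYP1A1 no adjusted p (log2 1.01, unadjusted p = 4.98e-05). With library totals in place of TMM, 8 genes were called, and CYP1A1 and ADGRG1 had edgeR adjusted p-values of 0.0551 and 0.0532. ID3 was called in the fits of 57 and 6 libraries and with DESeq2 (adjusted p = 0.0397, 0.0074 and 0.0209). The larger sets also held genes not named above. Leaving aside the run with no filter, GRAMD1B was called in 5 alternatives, with log2 differences of -0.252 to -0.251. EPAS1 (-0.246 to -0.213) and MKNK2 (-0.228 to -0.196) were called in 4 each. With no filter, 110 genes were called at 100 and 62 at 20 µg/mL, and leaving out 1 library gave 0 to 1 at 100 (1 without Soyo-san 100 replicate 1). The interaction count was 5 with 57 libraries, 5 with DESeq2, 78 with no filter and 1 to 2 with 1 library left out; it has no fit in 6 libraries of 1 dose. Soyo-san from 20 to 500 gave 106 with 57 libraries, 34 with 6, 41 with library totals and 192 with no filter. With the mitochondrial percentage as covariate (added after seeing the data) it gave 134. Leaving out 1 of its own libraries gave 34 to 47, and the unplanned fit without Okbyeongpung-san 100 replicate 2 gave 79. Okbyeongpung-san from 20 to 500 gave 106 with no filter, 9 to 12 without 1 of its own libraries and 15 in that unplanned fit. The cause of these shifts was not tested.

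Same-numbered libraries were not closely paired: their correlations were -0.06 to 0.01 between the 500 groups and -0.07 to 0.12 over all groups compared. Of 18 libraries, 9 correlated best with one of their own number, and the count to be had without pairing was not worked out. With the replicate number as a block, 12 genes were called at 500, 0 at 100 and 20, 3 in the interaction, 66 from 20 to 500 with Soyo-san and 14 with Okbyeongpung-san.

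Depth limits the low genes: the median SE of the log2 difference at 500 was 0.368 under 1 CPM, 0.186 from 1 to 5, 0.0898 from 5 to 20, 0.0587 from 20 to 100 and 0.0496 above.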

Other observations

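Some genes that changed with dose in 1 extract were not called between the extracts at 500. NR4A1 and NR4A3, immediate early orphan nuclear receptor genes, fell by 0.56 and 0.58 on the log2 scale with Soyo-san (edgeR adjusted p = 0.000752 and 0.000783) and had log2 changes of -0.25 and -0.17 with Okbyeongpung-san, neither called. H19, an imprinted long noncoding RNA, fell by 0.46 with Soyo-san and stood at -0.22 with Okbyeongpung-san. HSPA1A, an inducible HSP70 gene, rose with Okbyeongpung-san (log2 change 0.34, edgeR adjusted p = 0.033) and had a log2 change of 0.05 with Soyo-san. At 500 the differences between the extracts were -0.28 for NR4A1, -0.25 for NR4A3, -0.17 for H19 and -0.17 for HSPA1A, none of them called. The differences between the extracts in these dose changes did not pass the interaction test.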
